A study of Mus musculus with 35 samples.

Results

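Psca, Abcb1a, Ano5, Paqr5, Hp and Acy3 are 6 of the 54752 genes counted in 35 RNA-seq libraries of mouse embryonic fibroblasts undergoing reprogramming. They were picked by name, because in cells that did not receive Esrrb their transcripts were far scarcer than in cells that lacked another factor of the cocktail. That difference chose the genes and is given below as a description, without a test. The name "nearly absent without Esrrb" held for 5 of the 6 genes after day 0, apart from 7.54 TPM of Psca and 6.96 TPM of Hp on day 2. On day 0 Psca stood at 23.4 TPM without Esrrb, above the day 7 library without Jdp2 (20.7 TPM). Abcb1a was also scarce in some libraries that received Esrrb. It stood at 0.27 TPM on day 2 without Sall4, against at most 0.46 TPM without Esrrb. Acy3 was lower without Esrrb but still gave 186 counts over the 8 libraries of that arm, so it is described below as lower and not as absent.

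JEGS stands for retroviruses carrying Jdp2, Glis1, Esrrb and Sall4, which turn fibroblasts towards pluripotent stem cells. The 3 JEGS libraries (days 2, 4 and 6) received all 4 factors. The arm without Esrrb, the arm without Glis1, the arm without Jdp2 and the arm without Sall4 each received the other 3 factors and gave 1 library on each day from 0 to 7, or 8 per arm. All cells were fibroblasts at passage 2 from E13.5 embryos, which carry an Oct4-GFP reporter allele from sires of CBA/CaJ × C57BL/6J background crossed to dams of an SvJaeJ strain, whose number varies between labels. They were infected for 48 hours and then kept in iCD3 medium with a Rock inhibitor for up to 7 days. A treatment label names all 4 factors for every sample, against the sample names. The names were followed, because Esrrb, Glis1, Jdp2 and Sall4 were each low in the arm named as lacking them. No day was repeated within an arm, so p-values measure the spread between libraries, not between cultures. The labels name a pair of library kits and of sequencing runs without tying them to libraries, so a batch shared by the libraries of any arm, JEGS included, and the effect of its factors cannot be told apart. Library totals ran from 1266379 to 3608456 counts (median 1973102). The arm without Esrrb had the shallowest leave-out libraries, at 1377656 to 1651712 counts, while no library of the other 3 leave-out arms held fewer than 1672386.

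Esrrb is an orphan nuclear receptor that binds DNA at sites of the form AAGGTCA and maintains naive pluripotency in mouse embryonic stem cells. The 6 genes are not known as classical pluripotency genes. Psca is a small surface protein of the Ly6/uPAR family held by a GPI anchor, and Abcb1a is a P-glycoprotein that pumps drugs and lipophilic compounds out of cells. Ano5 belongs to the anoctamin (TMEM16) family of membrane proteins, and Paqr5 is a membrane receptor for progesterone of the progestin and adipoQ receptor family. Hp encodes haptoglobin, a secreted acute phase protein that binds free haemoglobin, and Acy3 is an aminoacylase that removes acetyl groups from mercapturic acids.

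The promoters are shown because Esrrb recognises a defined DNA sequence. RefSeq sequences (build GRCm38.p6) were found for 4 of the 6 genes, Abcb1a, Ano5, Paqr5 and Acy3. The RefSeq start of Abcb1a lies 92986 bases from the GENCODE start of the gene, so its sequence is neither printed nor counted. The 250 bases before the RefSeq start of the other 3 genes are given 5′ to 3′ on the strand of the gene, in lower case, with the core site AGGTCA in capitals. Ano5 lies on the plus strand (chr7:51510779-51511028), Paqr5 on the minus strand (chr9:62026791-62027040) and Acy3 on the plus strand (chr19:3986320-3986569).
Ano5: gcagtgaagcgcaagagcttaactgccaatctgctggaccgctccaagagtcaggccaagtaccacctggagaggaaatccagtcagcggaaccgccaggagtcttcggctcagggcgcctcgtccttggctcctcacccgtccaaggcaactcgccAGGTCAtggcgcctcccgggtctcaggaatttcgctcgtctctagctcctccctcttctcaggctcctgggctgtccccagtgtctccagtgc
Paqr5: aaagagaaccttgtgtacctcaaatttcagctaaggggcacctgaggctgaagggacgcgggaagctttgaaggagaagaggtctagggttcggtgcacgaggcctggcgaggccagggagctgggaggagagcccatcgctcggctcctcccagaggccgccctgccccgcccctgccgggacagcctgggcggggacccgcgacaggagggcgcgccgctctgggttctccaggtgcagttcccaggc
Acy3: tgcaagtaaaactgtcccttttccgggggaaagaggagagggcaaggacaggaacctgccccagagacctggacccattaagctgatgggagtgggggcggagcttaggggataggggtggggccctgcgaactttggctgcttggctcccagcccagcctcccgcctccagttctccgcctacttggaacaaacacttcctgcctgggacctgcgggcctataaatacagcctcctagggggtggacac
Both strands were searched. AAGGTCA was found in 0 of these 3 promoters and in 4.09% of 32536 promoters in the table, and AAGGTCA with TC directly before it in 0 of 3 and 0.375%. The shorter AGGTCA, which lies within both and was added after the sequences had been seen, was found in the Ano5 promoter only (1 of 3, against 14.0% of all promoters), at position -93 from the start. Over these 250 bases the Ano5 promoter held 61.6% G or C, the Paqr5 promoter 66.8% and the Acy3 promoter 60.4%, against a median of 52.4% over all promoters. These matches describe letters in a window and not binding.

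The level of Esrrb itself set the arms apart. Retroviral and endogenous transcripts were counted together. Without Esrrb, it stood between 6.18 and 20.3 TPM (a level per transcript length, scaled to the same total in each library) in 7 of the 8 libraries and at 70.5 TPM on day 2. It ran from 4292 to 7451 TPM without Glis1, from 594 to 2877 TPM without Jdp2 and from 5292 to 7368 TPM without Sall4. The 3 JEGS libraries held 2746, 1911 and 998 TPM on days 2, 4 and 6. The Esrrb levels of JEGS libraries and of the arm without Jdp2 overlapped, and both lay below every library without Glis1 or without Sall4.

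**Figure D1:**
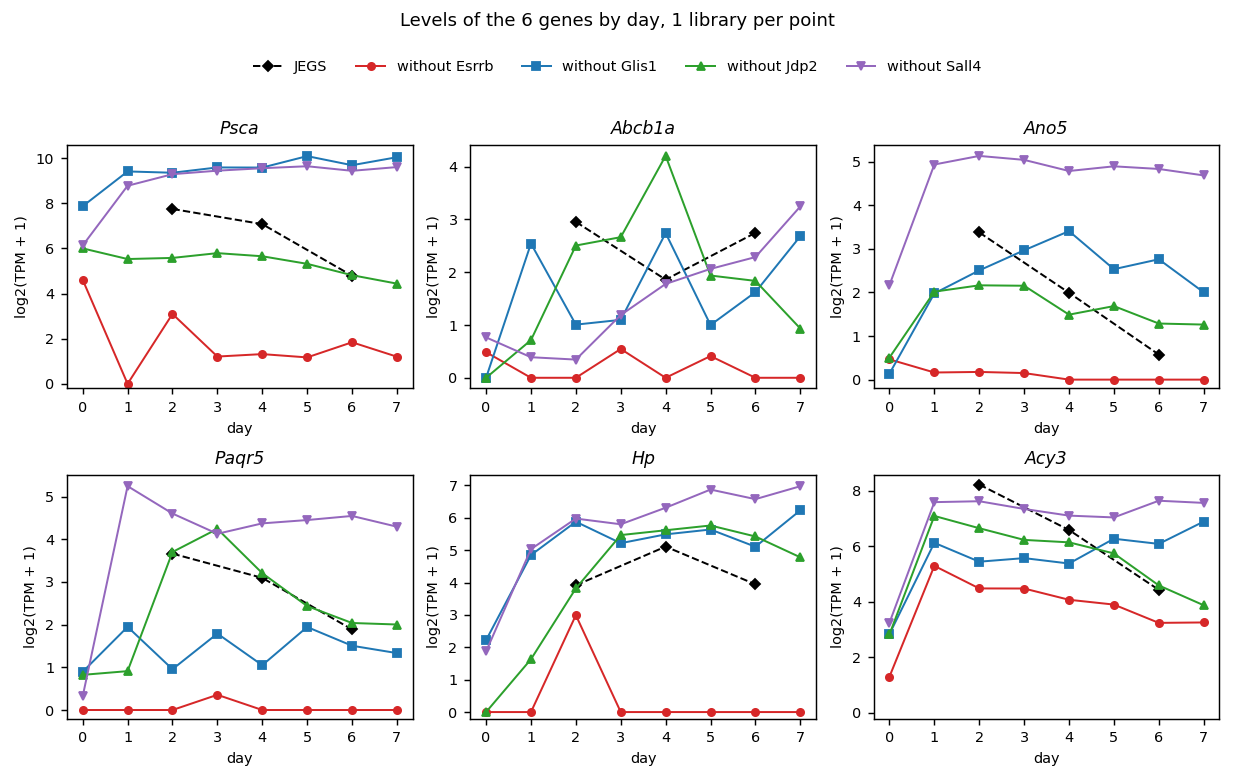
Levels of the 6 genes as log2(TPM + 1) (vertical axes) by day (horizontal axes), with 1 library per point and 1 line per arm. The line without Esrrb is the lowest on each of days 1 to 7 in all panels. Its Acy3 points stay above 0, and its Hp line leaves 0 on day 2 only.

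Psca (chr15:74714839-74717069, plus strand, mm10) was the most abundant of the 6 genes in the arms without Glis1 and without Sall4. Without Esrrb it stood at 23.4 TPM on day 0, 0 on day 1, 7.54 on day 2 and 1.25 to 2.58 TPM on days 3 to 7, which is 27 counts in 8 libraries. On days 1 to 7 it ran from 651 to 1085 TPM without Glis1 (median 766), from 20.7 to 54.3 TPM without Jdp2 (median 45.1) and from 436 to 795 TPM without Sall4 (median 694). No library of those days without Esrrb reached the lowest library of any of the other 3 arms. Pooled over libraries, CPM (counts scaled to library totals) were 106-fold lower without Esrrb (95% interval 72.5 to 160, exact, counting error only), and the fitted log2 difference was -5.90 ± 0.53 (SE). Of the 27 counts, 16 came from the day 0 library. On days 1 to 7 pooled CPM were 251-fold lower without Esrrb (95% interval 140.3 to 503), and leaving out day 0 gave a fitted log2 difference of -7.13 ± 0.29. In bulk RNA, fewer cells with a transcript and less of it per cell cannot be told apart, here and for all values below. On day 0, the start of the series, the arms were closer, at 23.4 TPM without Esrrb, against 232 without Glis1, 62.9 without Jdp2 and 68.9 TPM without Sall4.

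Among the 3 leave-out arms that received Esrrb, Psca was lowest without Jdp2. The log2 difference was 4.19 ± 0.42 for the arm without Glis1 minus the arm without Jdp2 (adjusted p = 7.84e-09, edgeR quasi-likelihood test, Benjamini-Hochberg over 18135 genes). It was -3.86 ± 0.42 for the arm without Jdp2 minus the arm without Sall4 (adjusted p = 6.08e-08, edgeR). The arms without Glis1 and without Sall4 differed by 0.34 ± 0.35, which did not pass the test (adjusted p = 0.502, edgeR). Leaving out each day in turn kept both calls. Psca per 1000 TPM of Esrrb had a median of 125 TPM without Glis1 and 103 TPM without Sall4 on days 1 to 7, against 19.3 TPM without Jdp2. In JEGS it ran from 26.7 to 77.7 TPM, which overlapped with the range of 16.2 to 34.8 TPM without Jdp2.

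Abcb1a (chr5:8660077-8748575, plus strand) was low everywhere and had the least regular course of the 6 genes. Without Esrrb, it had 5 counts in 8 libraries and was at 0 in 5 of them, with at most 0.46 TPM. The day 4 library without Jdp2 reached 17.5 TPM, while the other 7 libraries of that arm stayed between 0 and 5.34 TPM. Without Glis1 the gene ran from 0 to 5.69 TPM with no steady course, and without Sall4 it ran from 0.27 TPM on day 2 to 8.49 TPM on day 7. On day 0 the 4 arms overlapped, at 0.40 TPM without Esrrb, 0 without Glis1 and without Jdp2, and 0.70 TPM without Sall4. Pooled CPM were 14.55-fold lower without Esrrb (95% interval 6.17 to 45.1, counting error only), and the fitted log2 difference was -3.54 ± 0.80. No pair among the other 3 arms passed the test (adjusted p of 0.314, 0.361 and 0.947, edgeR). Abcb1a shares 17.6% of its 50-base stretches with Abcb1b or Abcb4, so the way RSEM divided reads between them makes its counts uncertain. It also overlaps the predicted transcripts Gm42684 on its own strand and Gm42686 on the other.

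Ano5 (chr7:51511029-51598709, plus strand) had its highest level without Sall4. Without Esrrb it gave 1 count on each of days 0 to 3 and 0 on days 4 to 7, which is at most 0.38 TPM. On days 1 to 7 it held 2.94 to 9.61 TPM without Glis1, 1.40 to 3.48 TPM without Jdp2 and 24.7 to 34.1 TPM without Sall4. The arm without Sall4 did not overlap with any other on those days. The log2 difference was -2.57 ± 0.23 for without Glis1 minus without Sall4 (adjusted p = 1.39e-09, edgeR) and -3.66 ± 0.25 for without Jdp2 minus without Sall4 (adjusted p = 1.77e-11, edgeR). It was 1.09 ± 0.27 for without Glis1 minus without Jdp2 (adjusted p = 0.00201, edgeR). Esrrb levels without Glis1 and without Sall4 overlapped, yet Ano5 per 1000 TPM of Esrrb had a median of 0.734 TPM without Glis1 and 4.19 TPM without Sall4 on days 1 to 7. Pooled CPM were 131-fold lower without Esrrb than in the other 3 arms (95% interval 51.1 to 481, counting error only).

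Paqr5 (chr9:61953481-62026856, minus strand) was also highest without Sall4. Without Esrrb, it gave 1 count in all, on day 3, against 819 counts in the other 24 leave-out libraries. That is 178-fold lower in pooled CPM, with a 95% counting interval of 31.9 to 7052. On days 1 to 7 it held 0.94 to 2.86 TPM without Glis1 and 16.5 to 37.0 TPM without Sall4, and these ranges did not overlap. Without Jdp2 it held 0.77 and 0.88 TPM on days 0 and 1, 12.0 and 18.0 TPM on days 2 and 3, and 8.23 TPM on day 4 before 3.01 TPM on day 7. The log2 difference was -3.21 ± 0.44 for without Glis1 minus without Sall4 (adjusted p = 1.49e-06, edgeR) and -1.97 ± 0.40 for without Jdp2 minus without Sall4 (adjusted p = 0.00033, edgeR). For without Glis1 minus without Jdp2 it was -1.25 ± 0.48 (adjusted p = 0.0426, edgeR). That last call was lost without the day 2 and day 3 libraries of the arm without Jdp2, which held 798 and 719 TPM of neutrophil transcripts summed over 8 markers, against at most 25.04 TPM in any other library. Without them, a step chosen after the data had been seen, the difference was -0.48 ± 0.49 (adjusted p = 0.503, edgeR). The call was also lost when day 2, 3, 4, 6 or 7 was left out of all arms (adjusted p of 0.0586 to 0.299, edgeR) and under DESeq2 (adjusted p = 0.103).

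Hp (chr8:109575128-109579172, minus strand) was detected without Esrrb on a single day. The day 2 library of that arm held 8 counts, or 6.96 TPM, and the other 7 libraries held 0, each of which allows up to 3 counts. The same library had the highest Esrrb level of its arm (70.5 TPM) and, after day 0, its highest Psca level. Hp ran from 3.66 to 74.1 TPM without Glis1, from 0 to 53.3 TPM without Jdp2 and from 2.66 to 125 TPM without Sall4. Day 0 was the lowest library in each of those 3 arms. Pooled CPM were 59.9-fold lower without Esrrb (95% interval 30.4 to 139, counting error only), with a fitted log2 difference of -5.72 ± 0.53. Without the day 2 library of that arm, the other 7 held 0 counts, at least 141-fold lower with a floor of 3 counts over the group. The arm without Jdp2 lay below the arm without Sall4 by a log2 difference of -1.46 ± 0.33 (adjusted p = 0.000897, edgeR). That call was lost with no day term in the fit (adjusted p = 0.0734) and held without the day 2 and day 3 libraries of the arm without Jdp2. The arm without Glis1 minus the arm without Sall4 gave -0.78 ± 0.32 (adjusted p = 0.0659, edgeR), which passed the test when day 0, 1 or 2 was left out (adjusted p of 0.0344 to 0.0466) and without the day 2 library of the arm without Esrrb (adjusted p = 0.03).

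Hp is stored in neutrophil granules and secreted by hepatocytes, so both cell types' markers were read beside it. Neutrophil transcripts summed to 798 and 719 TPM in the day 2 and day 3 libraries without Jdp2, where Hp held 13.1 and 43.2 TPM. On days 4 to 6 of that arm the markers summed to 1.31 to 4.72 TPM, while Hp held 41.9 to 53.3 TPM. Without Glis1 the 8 neutrophil markers summed to at most 3.99 TPM, with S100a9, Camp, Ngp, Elane and Mpo at 0, and without Sall4 to at most 19.95 TPM, with Camp, Ngp, Elane and Mpo at 0. Without Esrrb they summed to at most 17.41 TPM, with the same 4 genes at 0, and in JEGS to at most 3.75 TPM. Hepatocyte markers (11 genes) summed to 13.0 to 35.1 TPM in JEGS, 1.49 to 39.5 TPM without Esrrb, 4.92 to 24.0 TPM without Glis1, 2.46 to 59.7 TPM without Jdp2 and 0 to 32.1 TPM without Sall4. Alb, the albumin gene, was at 0 in every library without Esrrb, without Glis1 and without Sall4. Serpina1a was at 0 in every arm. Ahsg was at 0 without Esrrb and without Sall4, and Hnf4a in those arms and in JEGS. The remaining markers of the list were detected in every arm. Of the 6 markers of the whole list that were tested, 1 rose and 1 fell without Esrrb against the other leave-out arms. Apob had a log2 difference of 2.49 ± 0.32 (adjusted p = 7.59e-07, edgeR) and Apoa2 of -2.15 ± 0.81 (adjusted p = 0.0331, edgeR). Of all genes, 20.9% rose and 21.9% fell.

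Acy3 (chr19:3986570-3990007, plus strand) differed from the other genes in that it was present in every library without Esrrb. In that arm it stood at 1.47 TPM on day 0, 38.1 TPM on day 1 and 8.45 to 21.3 TPM on days 2 to 7. It ran from 40.5 to 117 TPM without Glis1, from 13.7 to 135 TPM without Jdp2 and from 130 to 198 TPM without Sall4 on days 1 to 7. The highest library without Esrrb (38.1 TPM) lay above the day 6 and day 7 libraries without Jdp2, at 23.0 and 13.7 TPM, and below all other libraries of those days in the 3 arms. Pooled CPM were 5.96-fold lower without Esrrb (95% interval 5.15 to 6.94, counting error only), with a fitted log2 difference of -2.54 ± 0.31. From 1 library each, Acy3 was 23.6-fold higher on day 1 than on day 0 without Esrrb from 55 counts against 2. The same ratio was 12.6 without Glis1, 22.2 without Jdp2 and 24.9 without Sall4, with overlapping intervals. The arm without Sall4 was the highest, with -1.33 ± 0.29 for without Glis1 minus without Sall4 (adjusted p = 0.00084, edgeR) and -1.59 ± 0.30 for without Jdp2 minus without Sall4 (adjusted p = 0.00014, edgeR). The arm without Glis1 minus the arm without Jdp2 gave 0.26 ± 0.31 (adjusted p = 0.554, edgeR). Of its 50-base stretches, 8.72% are shared with the pseudogene Gm48931, which had 0 TPM in all 35 libraries.

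**Figure D2:**
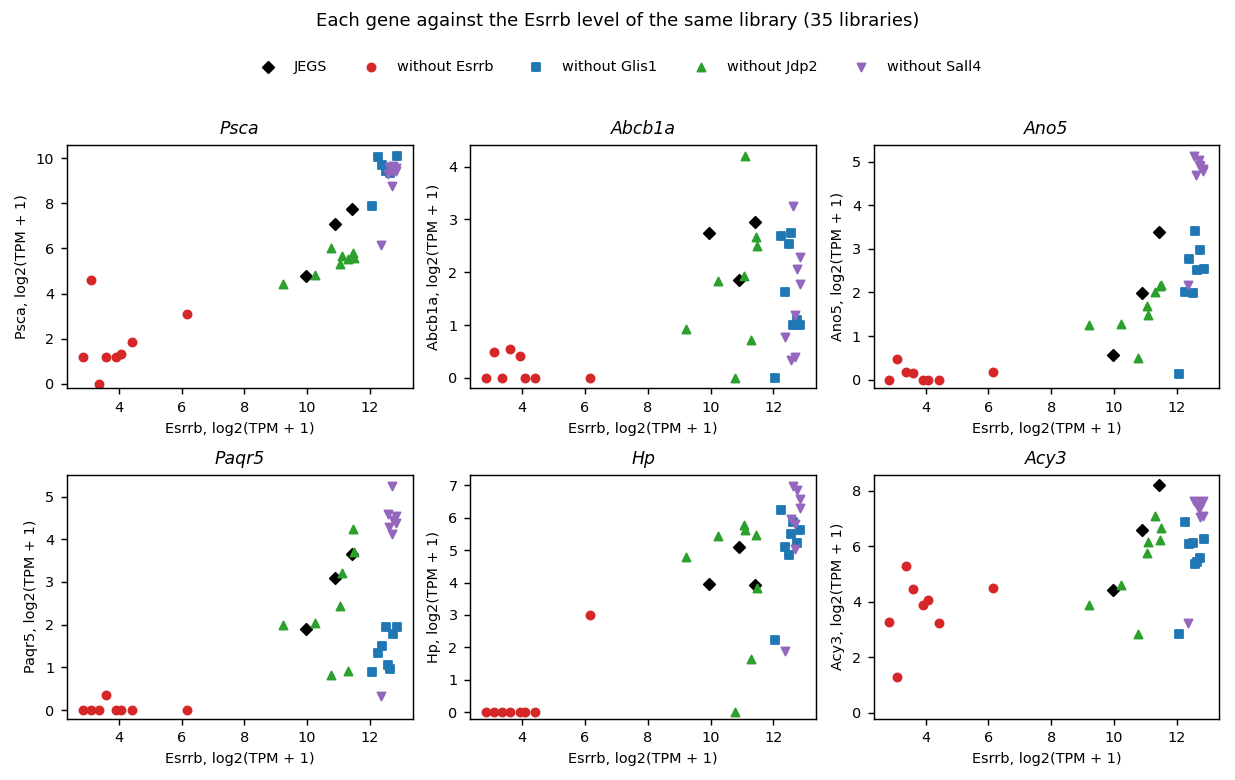
Level of each gene against the Esrrb level of the same library, both as log2(TPM + 1), for 35 libraries coloured by arm. The 8 libraries without Esrrb form a separate group on the left, and on days 1 to 7 the ranges without Glis1 and without Sall4 are apart for Ano5 and Paqr5 and overlap for Psca.

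The contrast that chose the genes put all 6 below a log2 difference of -2, where 4.22% of the 18135 genes tested stood, and 4 of them (Psca, Ano5, Paqr5 and Hp) below -5, where 0.143% stood. Counted from the lowest, Paqr5 was number 6 of all genes tested, Ano5 7, Psca 8, Hp 12, Abcb1a 143 and Acy3 418. As the genes were named from this contrast, nothing is read from these shares, nor from those that follow, which use the same arms. On days 1 to 7, every TPM without Glis1 lay above every TPM without Esrrb for 6 of 6 genes (5.21% of all genes), every TPM without Jdp2 for 4 of 6 (2.72%; not Hp or Acy3) and every TPM without Sall4 for 5 of 6 (6.78%; not Abcb1a). Over days 0 to 7, the same-day TPM was higher on every day without Glis1 for 4 of 6 (7.49%), without Jdp2 for 4 of 6 (6.16%) and without Sall4 for 6 of 6 (8.63%).

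Among the 3 arms that received Esrrb, the 6 genes did not share an order. For without Glis1 minus without Jdp2, 3 of 6 passed the edgeR test, where 35.2% of all genes passed. Psca and Ano5 were higher without Glis1 (17.3% of all genes were) and Paqr5 was lower (17.9%). For without Glis1 minus without Sall4, 3 of 6 passed (Ano5, Paqr5 and Acy3, all lower without Glis1), where 32.1% of all genes passed and 15.9% were lower. For without Jdp2 minus without Sall4, 5 of 6 passed and were lower without Jdp2, where 35.2% of all genes passed and 17.0% were lower. Abcb1a passed in none of the 3. With limma on log2(TPM + 1) the share of calls on the higher side was 37.5% for the first pair, against 49.1% with edgeR, and 65.0% for the third, against 51.7%. The sign of each of these 11 calls was the same there, and 2 of them did not pass (Ano5 and Paqr5 between the arms without Glis1 and without Jdp2, adjusted p of 0.0695 and 0.0855).

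**Figure D3:**
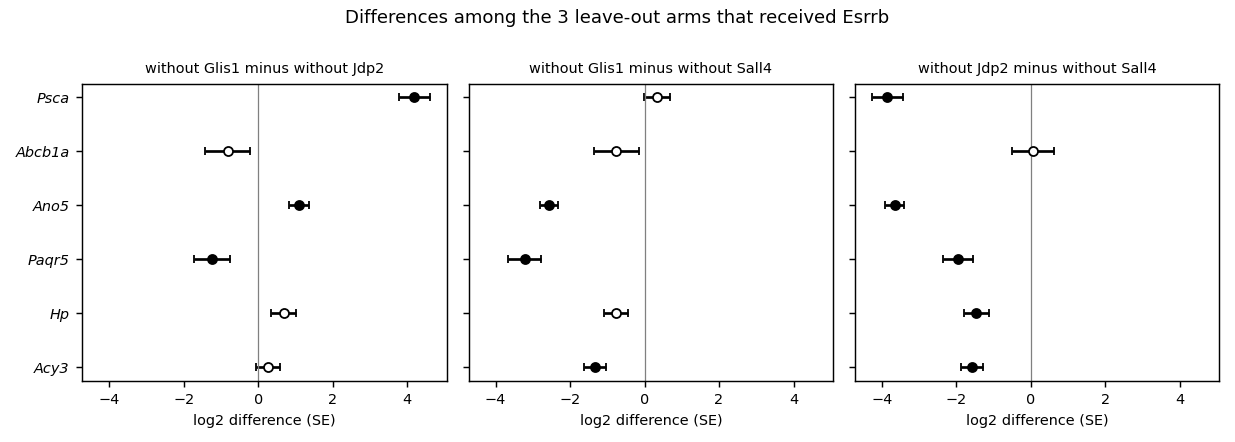
Log2 differences (horizontal axes, bars show the SE of the edgeR fit) of the 6 genes between pairs of the 3 leave-out arms that received Esrrb, with filled points for adjusted p under 0.05. Psca has the largest difference between the arms without Glis1 and without Jdp2, and 5 filled points lie left of 0 for the arm without Jdp2 minus the arm without Sall4.

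The JEGS libraries took no part in choosing the genes, but the arm without Esrrb did, so its comparison with JEGS carries no test for the 6 genes. Of all genes, 6.63% passed the edgeR test in that comparison, 4.04% higher and 2.6% lower in JEGS. All 6 genes were above the same-day library without Esrrb on days 2, 4 and 6, which held for 13.9% of 16603 genes tested. Nothing is read from that share, since the genes were chosen for low values in that arm. Psca had 213, 134 and 26.6 TPM in JEGS on days 2, 4 and 6, against 7.54, 1.49 and 2.58 TPM without Esrrb, or 260 counts against 8 (33.0-fold in pooled CPM, 95% counting interval 16.5 to 77.2). Acy3 had 296, 94.7 and 20.5 TPM in JEGS, against 21.3, 15.8 and 8.45 TPM without Esrrb. Hp had 14.1, 33.5 and 14.4 TPM in JEGS, against 6.96, 0 and 0 TPM without Esrrb. The JEGS and same-day values came closest, as a ratio, for Hp on day 2, at 14.1 against 6.96 TPM.

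The scarcer genes showed the same direction in fewer counts. Ano5 had 9.39, 2.98 and 0.49 TPM in JEGS, against 0.13, 0 and 0 TPM without Esrrb, or 58 counts against 1 (58.9-fold in pooled CPM, 95% counting interval 10.2 to 2364). Paqr5 had 11.7, 7.55 and 2.70 TPM in JEGS, against 0 on all 3 days without Esrrb, which is 38 counts against 0 and at least 12.9-fold higher with a floor of 3 counts over the group. Abcb1a had 6.75, 2.63 and 5.71 TPM in JEGS, against 0 on all 3 days without Esrrb, or 39 counts against 0 and at least 13.2-fold higher. Psca, Ano5, Paqr5, Acy3 and Esrrb itself were each highest on day 2 and lowest on day 6 of the JEGS series, which Hp and Abcb1a were not. The other 3 factors had the same course in JEGS, with Jdp2 at 920, 607 and 278 TPM, Glis1 at 842, 652 and 258 TPM and Sall4 at 977, 705 and 402 TPM on days 2, 4 and 6. Their part in that course was not tested.

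Set against the mean of the 3 other Esrrb-receiving arms on the same days, JEGS was lower in Psca with edgeR, a call that depended on the setting. Those 3 arms took part in choosing the genes, and the JEGS libraries did not. Psca averaged 125 ± 93.7 TPM in JEGS (SD, n = 3), against 745 ± 86.3 TPM without Glis1, 41.0 ± 12.1 TPM without Jdp2 and 687 ± 62.8 TPM without Sall4 on those days. The log2 difference was -1.33 ± 0.35 (adjusted p = 0.0227, edgeR, 16603 genes), where 11.9% of all genes passed, 7.29% higher and 4.63% lower in JEGS. It did not pass without the day 4 JEGS library (-1.42, adjusted p = 0.0791) or without the day 6 JEGS library (-0.77, adjusted p = 0.135), nor with limma (adjusted p = 0.0506), with no day term (adjusted p = 0.059) or with all 35 libraries in the fit (adjusted p = 0.126). Ano5 (-1.25 ± 0.44, adjusted p = 0.0743) and Hp (-1.30 ± 0.43, adjusted p = 0.0588) missed the edgeR threshold and passed with DESeq2 (adjusted p of 0.0338 and 0.0402). Ano5 also passed without the day 2 JEGS library (-2.40, adjusted p = 0.00581, edgeR). Abcb1a gave 0.55 ± 0.56, Paqr5 -0.25 ± 0.43 and Acy3 0.35 ± 0.44, none of which passed (adjusted p of 0.569 to 0.756, edgeR).

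Over days 0 to 7, the slope averaged over the 3 leave-out arms that received Esrrb was upward for Hp and Abcb1a. This does not mean a rise in each arm. Without Jdp2, Abcb1a stood at 17.5 TPM on day 4 and at 0.91 TPM on day 7. The mean slope was 0.40 ± 0.09 log2 units per day for Hp (adjusted p = 0.00241, edgeR) and 0.33 ± 0.11 for Abcb1a (adjusted p = 0.0235, edgeR), or 2 of 6 genes where 24.2% of all genes changed, 12.0% upwards and 12.2% downwards. The Hp call held without each day in turn (adjusted p of 0.00185 to 0.0129). The Abcb1a call did not hold without day 0 (0.24 per day, adjusted p = 0.0972) or without day 7 (0.33 per day, adjusted p = 0.0753). Psca (0.09 ± 0.06), Ano5 (0.13 ± 0.08), Paqr5 (-0.06 ± 0.10) and Acy3 (0.04 ± 0.09) had slopes that did not pass. With log2(day + 1) in place of day, Psca (adjusted p = 0.00634) and Ano5 (adjusted p = 0.012, both edgeR) passed too with upward mean slopes, which made 4 of 6 genes. For Acy3 the level on day 0 carried the sign, since without day 0 the slope was -0.12 per day (adjusted p = 0.0081, edgeR). Psca on day 1 was 3.32 times its day 0 level without Glis1 (95% counting interval 2.83 to 3.89), 7.04 times without Sall4 (5.32 to 9.47) and 0.717 times without Jdp2 (0.457 to 1.11), from 1 library each.

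No slope of the 6 genes in any of the 3 arms passed the edgeR test against the mean slope of the other 2 (0 of 6 in each). Of all genes, 0.959% passed without Glis1 (0.54% steeper upwards, 0.419% downwards), 2.11% without Jdp2 (1.26% and 0.849%) and 0.336% without Sall4 (0.0827% and 0.254%). The share of these calls on the upward side depended on the setting. Without Sall4 it was 24.6% with edgeR, 44.5% with DESeq2, 59.3% with limma and 61.2% without day 0. Without Jdp2 it was 59.8% with edgeR and 44.3% without day 0, and without Glis1 56.3% with edgeR and 67.9% with limma. At an unadjusted p under 0.05 stood 0 genes without Glis1, 2 without Jdp2 and 1 without Sall4. Psca had a difference of -0.43 ± 0.12 per day (adjusted p = 0.053) and Acy3 of -0.51 ± 0.20 (adjusted p = 0.197) without Jdp2, and Psca of 0.25 ± 0.12 (adjusted p = 0.447) without Sall4. DESeq2 called 1 of these, Psca without Jdp2 (adjusted p = 0.00915), which also passed with log2(day + 1) in place of day (adjusted p = 0.00505). Leaving out day 0 brought Psca (-0.30, adjusted p = 0.00893) and Acy3 (-0.57, adjusted p = 8.77e-06) past the edgeR threshold without Jdp2, and Acy3 (0.41, adjusted p = 0.000338) without Glis1.

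Genes that lie beside the 6 on their chromosomes differed from place to place. Of the 24 nearest protein-coding genes (2 on each side of each gene, GENCODE M21), 19 were tested. Without Esrrb, 7 of them fell and 1 rose, with a median log2 difference of -0.22, where 21.9% of all genes fell, 20.9% rose and the median was -0.01. All 3 tested neighbours of Psca fell. Them6, at 4.13 kb, stood at 3.58 ± 1.52 TPM without Esrrb (SD, n = 8), against 28.0 ± 13.8 TPM in the other leave-out arms (n = 24), a log2 difference of -2.99 ± 0.25 (adjusted p = 1.79e-10, edgeR). Jrk, at 5.3 kb, gave -1.05 ± 0.19 (adjusted p = 6.18e-05, edgeR), and Arc, at 42.3 kb, gave -1.52 ± 0.39 (adjusted p = 0.00202, edgeR). Arc, which encodes a cytoskeletal protein of synapses, did not follow the Psca pattern in every arm. It stood between 1.80 and 31.2 TPM without Esrrb, against 2.99 to 9.77 TPM without Jdp2, so these ranges overlapped.

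Beside the other genes, changes were scattered. Abcb1b, the paralog of Abcb1a at 49.6 kb, fell to 10.1 ± 7.59 TPM without Esrrb, against 31.2 ± 16.2 TPM in the other leave-out arms (log2 difference -2.51 ± 0.31, adjusted p = 1.96e-07, edgeR), with the same limit on divided reads. Nudt8, at 10.6 kb from Acy3, gave -1.08 ± 0.175 (adjusted p = 1.21e-05, edgeR). Aldh3b3, at 14.5 kb from Acy3, had 0 counts without Esrrb, against 58 elsewhere (at least 4.23-fold lower, adjusted p = 0.0125, edgeR). Nell1, as far as 644 kb from Ano5, had 0 against 39 (at least 2.83-fold lower, adjusted p = 0.00899, edgeR). Kif23, a mitotic kinesin beside Paqr5, rose (0.86 ± 0.20, adjusted p = 0.000979, edgeR). None of the 4 neighbours of Hp passed, although Txnl4b lies 1.08 kb from it (-0.04 ± 0.19, adjusted p = 0.884, edgeR).

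**Figure D4:**
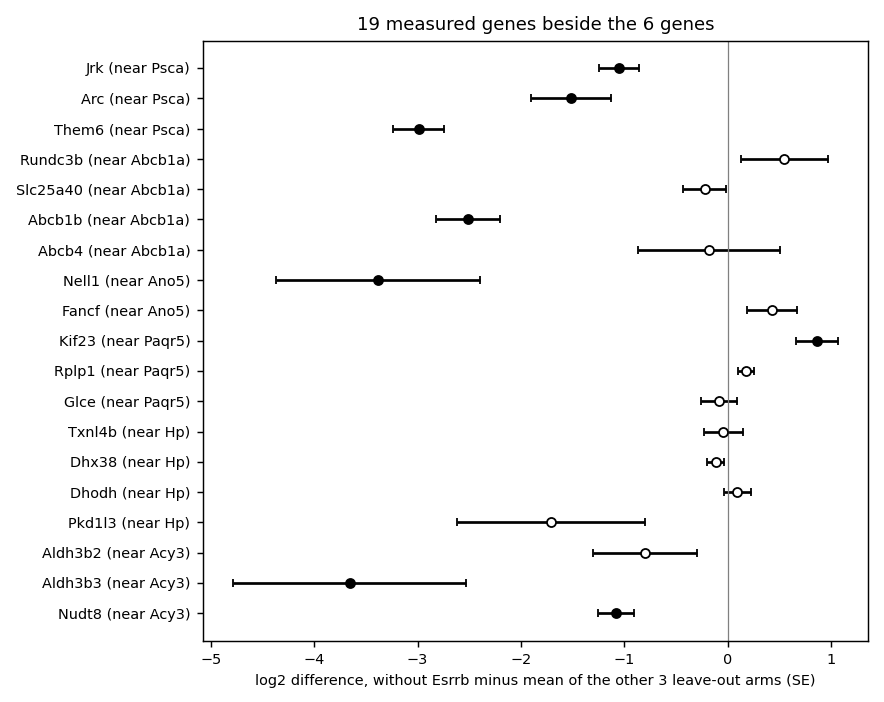
Log2 difference (horizontal axis, bars show the SE of the edgeR fit) between the arm without Esrrb and the mean of the other 3 leave-out arms for the 19 tested genes next to the 6 genes, with filled points for adjusted p under 0.05. All 3 genes beside Psca are filled and left of 0, and the 4 beside Hp are open.

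**Figure D5:**
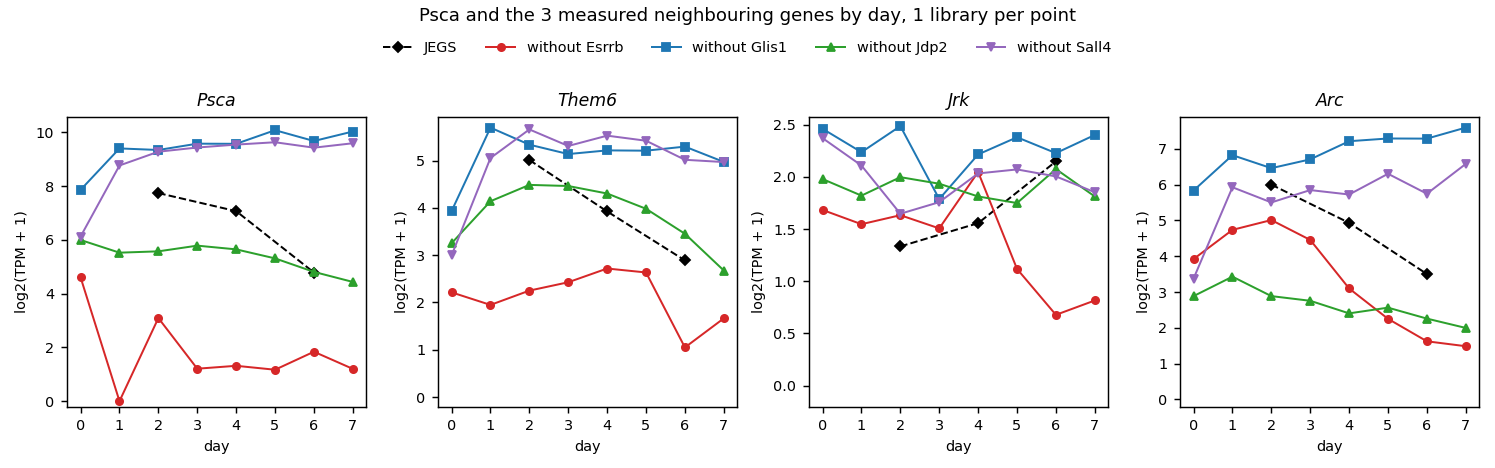
Psca and its 3 tested neighbours as log2(TPM + 1) (vertical axes) by day (horizontal axes), 1 library per point. The arm without Esrrb is lowest on every day for Them6, while the Arc lines without Esrrb and without Jdp2 cross between days 4 and 5.

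Relatives of the 6 genes by family or pathway were read in the same contrast, from lists written with earlier results of these data known. Of all genes, 21.9% fell and 20.9% rose in that contrast, and no list was tested against these shares. Of 23 genes of the Ly6/uPAR family, 15 were tested, 9 fell and 2 rose without Esrrb (median log2 difference -1.62, or -1.34 with the 3 genes that a group held at 0 set to their bounds). Ly6d fell to 0.826 ± 1.22 TPM without Esrrb, against 127 ± 226 TPM in the other leave-out arms (-4.44 ± 0.70, adjusted p = 7.87e-06, edgeR). Of 21 ABC transporters, 18 were tested, 7 fell and 1 rose (median -0.45). Abcc4, an exporter of organic anions, fell (-1.77 ± 0.22, adjusted p = 2.2e-07, edgeR) and Abcc6 rose (2.67 ± 0.74, adjusted p = 0.00596, edgeR). Abcc6 was near the floor, with 16 counts without Esrrb (0.58 ± 0.71 TPM) against 18 in the other leave-out arms (0.15 ± 0.37 TPM). Of 9 other anoctamins, 8 were tested, 4 fell and 3 rose (median -0.20), with Ano2 at 3.23 ± 0.63 (adjusted p = 0.000132, edgeR) and Ano3 at -1.34 ± 0.27 (adjusted p = 0.000154, edgeR). Of 10 other PAQR genes, all tested, 4 fell and 3 rose (median -0.41), with Paqr6 at 3.75 ± 0.48 (adjusted p = 3.18e-07, edgeR) opposite in sign to Paqr5.

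Of 20 acute phase plasma protein genes, as Hp is, 10 were tested, 4 fell and 1 rose (median -1.09). Itih4 gave -1.66 ± 0.59 (adjusted p = 0.0238, edgeR), and the fibrinogen chain gene Fga had 0 counts without Esrrb, against 43 elsewhere (at least 3.12-fold lower, adjusted p = 0.0339, edgeR). Of 24 aminoacylase and mercapturate pathway genes, as Acy3 is, 23 were tested, 7 fell and 4 rose (median -0.46, or -0.39 with 3 genes at their bounds). Aspa, a close relative of Acy3 that deacetylates N-acetylaspartate, had 0 counts in the 8 libraries without Esrrb, against 306 in the other 24, at least 22.2-fold lower (adjusted p = 6.81e-07, edgeR). Ggt5, a gamma-glutamyl transferase, rose (4.04 ± 0.31, adjusted p = 3.84e-11, edgeR).

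Of 11 genes of the estrogen-related receptor family and its coregulators, all tested, 3 fell and 1 rose without Esrrb (median -0.33), with Esrra, a related receptor, at -0.99 ± 0.13 (adjusted p = 8.7e-07, edgeR). Of 16 naive pluripotency genes, 13 were tested, 4 fell and 2 rose (median 0.27). Nr0b1 had 2 counts without Esrrb, against 496 elsewhere (-5.28 ± 0.60, adjusted p = 1.06e-07, edgeR), Tfcp2l1 fell (-2.51 ± 0.32, adjusted p = 3.1e-07, edgeR) and Pou5f1 rose (2.81 ± 0.56, adjusted p = 0.000152, edgeR). In TPM, Pou5f1 averaged 18.5 ± 9.91 without Esrrb (SD, n = 8), against 10.7 ± 22.9 in the other leave-out arms (n = 24). The spread of those arms exceeded their mean. In JEGS against the arm without Esrrb, 8 of 14 tested naive pluripotency genes rose and 0 fell (median 2.97), where 4.04% of all genes rose. Low levels of the 16 genes were not particular to the arm without Esrrb. Over all days they summed to 391 to 1435 TPM in JEGS and 60.3 to 203 TPM without Esrrb. The sums were 65.7 to 134 TPM without Glis1, 68.3 to 445 TPM without Jdp2 and 56.6 to 178 TPM without Sall4.

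Across the 27 libraries that received Esrrb, likeness of pattern was measured as Pearson's r of log2(TMM-scaled CPM + 1), as a description. The libraries of an arm share its factors and follow each other by day, and they are not independent. Psca was most like Gpx4, a glutathione peroxidase (r = 0.973), and its neighbour Arc (r = 0.957), and had r = 0.907 with Esrrb itself. Them6 had r = 0.882 and Jrk r = 0.442 with Psca. The other genes followed Esrrb less closely, at r = 0.656 for Ano5, 0.48 for Acy3, 0.4 for Hp, 0.312 for Paqr5 and -0.05 for Abcb1a. Ano5 was most like Atp5d, a subunit of ATP synthase (r = 0.962), and the kinase Pak6 (r = 0.936). Paqr5 was most like the ephrin receptor Ephb4 (r = 0.9) and Agap1 (r = 0.888), Hp most like Ccdc85c (r = 0.937) and Adssl1 (r = 0.9), Acy3 most like the lysosomal channel Tpcn1 (r = 0.914) and Hacd3 (r = 0.906), and Abcb1a most like Cpne5 (r = 0.791) and threonine dehydrogenase Tdh (r = 0.772). With the mean z-score of all 6 genes, Plbd2 (r = 0.945), Whrn (r = 0.932), Slc8b1 (r = 0.931), Pcx (r = 0.926) and Slc41a1 (r = 0.921) ranked first. Among the 6 genes, r ran from -0.015 between Psca and Abcb1a to 0.768 between Ano5 and Acy3.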

How the data were processed

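RNA from 35 libraries was sequenced by the authors. Per the submitters' processing notes, bcl2fastq, Bowtie2 and RSEM were used with the mm10 build; versions and the annotation release are not given in the sources used here. The authors deposited 1 RSEM table per library, with expected counts (estimated reads per gene, not normalized) and, per the file headers, TPM (scaled for transcript length and library total). Of 54752 Ensembl identifiers, 54723 matched a symbol. The genes, lists and tests were chosen with earlier results of these data known.

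After rounding of expected counts to integers, tests used edgeR 4.0.16 in R 4.3.3 (TMM scaling; a gene had to reach 1 CPM in 3 libraries; Benjamini-Hochberg adjustment over all genes of a contrast, threshold 0.05). The 32 leave-out libraries were fitted with arm and day as factors, or with arm and a linear day slope per arm. The 15 libraries of days 2, 4 and 6 were fitted with arm and day for JEGS. The fits were tested on simulated data with 200 changed genes. Levels are TPM, and ratios of pooled counts carry exact 95% intervals; intervals and the floor of 3 counts cover counting error only. In the text 1 count is worth 0.277 to 0.79 CPM, depending on the library. Named genes are the 6 genes and Esrrb, up to 3 of each list with the largest called change, the neighbours, and the 5 genes most like the mean of the 6 and the 2 most like each (predicted Gm and Rik genes left out). Positions are from GENCODE M21 (GRCm38). Alternatives were DESeq2 1.42.0 (test and size factors), no filter, limma 3.58.1 on log2(TPM + 1), no day term, all 35 libraries, log2(day + 1) and leaving out days or libraries. Figures were drawn with matplotlib 3.10.9.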

Additional observations from a re-analysis of the deposited data

Results flagged for a closer look

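In 28 groups of 8 libraries (the 6 genes and Esrrb in each leave-out arm), 13 had a library far from the others by Dixon's criterion. Its chance rate of about 1 in 20 assumes independent values. The libraries of an arm follow each other by day, and some groups hold mostly 0 counts, so that rate does not apply here. In 9 of these 13 groups the library was day 0, the lowest of its arm and the start of the series. These were Psca without Glis1 (232 TPM) and without Sall4 (68.9 TPM), Ano5 without Glis1 (0.10 TPM) and without Sall4 (3.50 TPM), Paqr5 without Sall4 (0.25 TPM), Hp without Glis1 (3.66 TPM) and without Sall4 (2.66 TPM), and Acy3 without Glis1 (6.15 TPM) and without Sall4 (8.49 TPM). In the arm without Esrrb, Ano5 stood highest on day 0 (0.38 TPM, 1 count) and Paqr5 on day 3 (0.28 TPM, 1 count). The day 2 library of that arm stood out in both Hp (6.96 TPM, 8 counts) and Esrrb (70.5 TPM, 91 counts), and whether these share a source was not tested.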

How the results depend on the processing

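Of 828 values of single genes under the alternatives, 778 were counted as the same, 18 no longer passed the threshold and 18 newly passed it. Another 13 untested values moved, and 1 tested value reversed. A tested value counted as the same if it stayed on its side of the threshold. Its change of sign was counted only where either fit passed. Signs of uncalled values did change, as for Abcb1a without Jdp2 minus without Sall4 (-0.35 to 0.49 with a day left out). An untested value counted as the same if it kept its sign and moved by less than the SD between libraries of an arm. The reversed value was the mean Acy3 slope without day 0 (-0.12 per day; 0.162 without day 1, the other end of its range). Alternatives without single doubted libraries were chosen after the data had been seen. Counts of all genes past the threshold stayed within 1.5 times except in these cases. For JEGS against the mean of the other 3 Esrrb-receiving arms (1978 genes), limma on TPM gave fewer (975), and leaving out a JEGS library gave 400 to 1560. For JEGS against the arm without Esrrb (1101), no filter gave 1773, limma gave 653, and leaving out a JEGS library gave 470 to 948. For the slope differences, without Glis1 (174) DESeq2 gave 320, log2(day + 1) 288 and leaving out a day 50 to 401. Without Jdp2 (383) DESeq2 gave 715, leaving out a day 69 to 1220, and leaving out the day 2 and day 3 libraries of that arm 151. Without Sall4 (61) DESeq2 gave 191, log2(day + 1) 223, leaving out a day 0 to 188, and leaving out those same libraries 32. The cause was not tested. Arms were compared within days, since day was a factor in the fits. Beyond this pairing by day, no paired analysis was possible because the labels give no replicate numbers. Depth limits the scarce genes, since Abcb1a, Ano5 and Paqr5 rest on 1 to 5 counts without Esrrb.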

Other observations

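Genes outside the 6 that were also scarce without Esrrb differed in which arms held them. Ly6d, a surface protein gene of the Psca family, ran from 0 to 3.13 TPM without Esrrb, against 6.75 to 682 TPM without Glis1, 0 to 22.3 TPM without Jdp2 and 0 to 5.85 TPM without Sall4, so its level without Sall4 overlapped with that without Esrrb. Nr0b1, which encodes a nuclear receptor partner known in embryonic stem cells, was at 0 in 7 of 8 libraries without Esrrb and at 1.23 TPM on day 2. It reached 16.1 TPM without Glis1, 11.2 TPM without Jdp2 and 11.3 TPM without Sall4. In the 3 JEGS libraries Nr0b1 was higher on each later day (10.0, 28.5 and 45.4 TPM on days 2, 4 and 6), against 1.23, 0 and 0 TPM without Esrrb, while Psca, Ano5, Paqr5 and Acy3 were lower on each later day of JEGS.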
